A study of Rattus norvegicus with 30 samples.

Results

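Clofibrate at 1000 uM was set against clofibrate at 60 uM after 48 h in primary rat hepatocytes, to describe what the higher dose adds to the lower one, carries further or turns back. The 10 arrays compared are the 5 cultures given 1000 uM and the 5 given 60 uM for 48 h, chosen by the dose and time in their labels from 30 arrays in all. Cells were frozen hepatocytes of male Sprague Dawley rats, thawed, plated on collagen under a Matrigel overlay and dosed on day 3 of culture. The other groups, 5 cultures each, were 1% DMSO at 24 and 48 h and clofibrate at 60 and 1000 uM for 24 h, and the DMSO solvent was common to all 6 groups. Each culture was 1 well and gave 1 Affymetrix array. The labels name separate cultures and not separate animals, so every p-value measures the spread between these cultures. The number of arrays limits the precision.

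Clofibrate is a fibrate, a class of lipid-lowering drugs whose active acid binds the nuclear receptor PPAR-alpha. That receptor pairs with RXR on DNA elements made of a direct repeat of a hexamer with a single spacer base, and in rodent liver it switches on peroxisomal and mitochondrial fatty acid oxidation, microsomal omega-hydroxylation and the growth of peroxisomes. Its ligands are also known to lower acute phase and clotting proteins in liver.

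Signals are the deposited linear MAS5 values, and changes are differences of mean log2 signal, 1000 uM minus 60 uM at 48 h unless another comparison is named, ± the standard error of the limma fit. A gene is called where its limma adjusted p (Benjamini-Hochberg, over all probe sets tested) is under 0.05. The authors' scaling gives all arrays an equal trimmed mean, so a change in total RNA per cell cannot be seen. In such bulk samples fewer cells of a type and less RNA per cell cannot be told apart. Arrays of the 2 groups correlated at 0.956 to 0.964 with each other. The ratio of 3' to 5' control signals had a mean of 2.33 at 60 uM and 2.48 at 1000 uM for actin, and of 1.16 and 1.14 for GAPDH. Their part in the results was not tested. In DMSO at 48 h, replicate 1 had a larger residual spread (SD 0.336) than any array of the clofibrate groups at 48 h (at most 0.297). An alternative fit that weights each array by its quality gave the lowest weight to 60 uM replicate 1 at 48 h (0.599). That array is part of the comparison made here. DMSO replicate 1 at 48 h had the next lowest weight (0.625). The hepatocyte label was borne out by high signals of Alb (mean 86117 at 60 uM and 83983 at 1000 uM) and Ttr (68328 and 67687), which carry the blood proteins albumin and transthyretin.

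Going from 60 to 1000 uM called 3236 of 10627 genes (30.5%), of which 1265 were higher (11.9%) and 1971 lower (18.5%). These shares of all genes are the ones to set beside each list count of the 48 h step given below. Changes of at least 2-fold were few and nearly balanced, with 105 genes higher (0.988%) and 91 lower (0.856%). At least 4-fold, there were 8 genes higher (0.0753%) and 5 lower (0.047%). The median of all genes was -0.05. The lower dose against DMSO called 1221 genes (11.5%), 606 higher (5.7%) and 615 lower (5.79%), so the step between the doses called more genes than the step from solvent to the lower dose.

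Most of what the lower dose moved went further in the same direction at the higher dose, and very little came back. Of the 606 genes raised by 60 uM, 480 rose again, 118 showed no called step and 8 fell. Of the 615 lowered by 60 uM, 467 fell again, 134 showed no called step and 14 rose. The larger share of the step lay in genes with no call at 60 uM, where 771 were higher and 1496 lower. All these classes are made from the same 60 uM arrays, so a chance deviation of those arrays moves both steps in opposite ways and favours a reversal over a further change. Scaled to the bacterial spike-in controls in place of the authors' scaling, the median of all probe sets moved from -0.04 to 0.07 and 69.1% of the called probe sets were higher, against 39.6%.

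**Figure D1:**
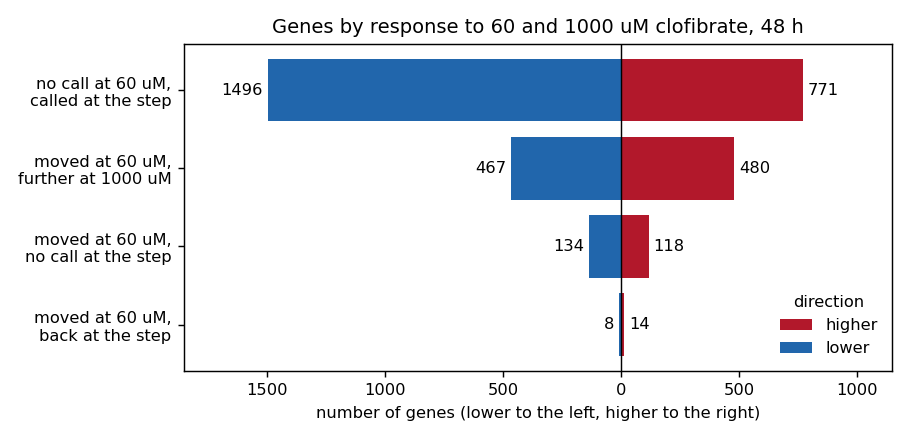
Number of genes in each class of response over DMSO, 60 uM and 1000 uM at 48 h, with genes higher drawn to the right and genes lower to the left (axis: number of genes, each class labelled with its count). The direction is that of the step to 1000 uM or, where that step was not called, that of 60 uM against DMSO. Genes called only in the step to 1000 uM (771 higher, 1496 lower) and genes carried further (480 and 467) outnumber those that came back (14 and 8).

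Fatty acid oxidation in peroxisomes was carried further as a group. Of 16 tested genes of peroxisomal beta-oxidation, 15 rose and 0 fell, with a list median of 0.71, and 14 of them had already risen at 60 uM, where the list median was 0.69. Ehhadh, the bifunctional hydratase and dehydrogenase of the pathway, had signals of 2671, 2079, 2039.8, 2390.1 and 2538 in DMSO, 13734, 14498, 15222, 14834 and 18010.1 at 60 uM and 73814, 74842, 77876, 80956 and 80263 at 1000 uM. No array of a group overlapped another group, and the higher dose added 5.1-fold (2.35 ± 0.08, limma adjusted p = 1.26e-21) to the 2.70 ± 0.08 gained at 60 uM. The lower dose reached 53.5% of the log2 change seen at 1000 uM. Crat, which moves short acyl groups between coenzyme A and carnitine, stood at 4665, 4919, 4002, 4443 and 4373 at 60 uM and 16549, 16048, 16508, 16720.5 and 16969.8 at 1000 uM. Its arrays did not overlap and its step of 1.89 ± 0.06 was larger than its response to 60 uM of 0.87 ± 0.06. Eci2, an isomerase for unsaturated acyl chains (1.40 ± 0.04), Hacl1, which cleaves branched hydroxyacyl chains (1.30 ± 0.07), and Acot8, a peroxisomal thioesterase (1.19 ± 0.08), also rose. Ech1, a dienoyl-CoA isomerase, rose by 0.60 after 1.07 at 60 uM.

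In mitochondria, 21 of 22 tested genes of beta-oxidation and the carnitine shuttle rose, 0 fell, and the list median was 0.57, the same as at 60 uM. The same 21 genes had been called higher at 60 uM. Cpt1b, an isoform of the gatekeeping carnitine palmitoyltransferase best known from muscle, rose by 1.76 ± 0.07, and Cpt1a, its liver form, by 1.25 ± 0.10. Slc22a5, the plasma membrane carnitine importer, had signals of 2979.8, 2769, 2937, 2936 and 2641 at 60 uM and 8024, 7825, 7914, 9261 and 8892 at 1000 uM. The groups lay apart, and its step of 1.55 ± 0.06 was larger than its response to 60 uM of 0.49 ± 0.06. Acadm, the medium-chain dehydrogenase, rose by 1.24 ± 0.06, Hadha of the trifunctional protein by 0.83 ± 0.05 and the acylcarnitine translocase Slc25a20 by 0.78 ± 0.06. Acaa2, the last thiolase of the cycle, changed by 0.93 at 60 uM and by a further 0.30 on its brightest probe set, and by 0.94 and 1.12 on its other one. Echs1, the short-chain hydratase, was the single gene of the list with no call (0.11); without 1000 uM replicate 4 it passed (0.13, limma adjusted p = 0.0416).

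Promoter letters were read for these genes, since they moved together and the receptor's response element is a known sequence. RefSeq start-site windows of the GRCr8 assembly, 250 bases before to 50 after each start, held an entry for 33 of the 38 tested genes of both oxidation lists. The motif searched on both strands was AGGTCA, the spacer base N and AGGTCA again, with up to 2 mismatches outside the N, and overlap with other motifs was not examined. It was found in 7 of the 33 windows (21.2%), against 3.71% of all 27457 windows of that length, 2.81% of the 8919 windows of tested genes, 5.51% of the called higher genes and 1.87% of the called lower genes. Among the 12 largest rises of the step it was in 1 of 8 windows (Crat), and among the 12 largest falls in 0 of 11. Members holding it are Acadvl, Acot8, Amacr, Crat, Echs1, Etfa and Slc25a20, which include Echs1 with no call. A match is a description of the letters and not a binding site. The windows with the fewest mismatches (1 each, in Acadvl, the very long-chain dehydrogenase, and Acot8) and that of the carnitine enzyme with the largest step (2 mismatches, Crat) are printed 5′ to 3′ on the gene's strand with the match in capitals. They lie at chr10:55236656-55236955 on the minus strand, chr3:173962139-173962438 on the minus strand and chr3:34087050-34087349 on the minus strand.
Acadvl: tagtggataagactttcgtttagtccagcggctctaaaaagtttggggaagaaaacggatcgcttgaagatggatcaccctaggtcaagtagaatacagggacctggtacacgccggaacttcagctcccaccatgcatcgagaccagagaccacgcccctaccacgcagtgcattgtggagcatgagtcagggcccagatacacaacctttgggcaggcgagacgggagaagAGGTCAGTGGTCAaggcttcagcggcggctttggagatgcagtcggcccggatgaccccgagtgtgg
Acot8: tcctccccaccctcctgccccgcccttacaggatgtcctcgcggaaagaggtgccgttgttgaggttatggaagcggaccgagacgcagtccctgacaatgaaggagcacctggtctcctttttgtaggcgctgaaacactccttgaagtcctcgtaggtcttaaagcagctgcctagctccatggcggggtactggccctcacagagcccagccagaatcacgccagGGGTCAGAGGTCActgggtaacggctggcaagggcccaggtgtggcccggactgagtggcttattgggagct
Crat: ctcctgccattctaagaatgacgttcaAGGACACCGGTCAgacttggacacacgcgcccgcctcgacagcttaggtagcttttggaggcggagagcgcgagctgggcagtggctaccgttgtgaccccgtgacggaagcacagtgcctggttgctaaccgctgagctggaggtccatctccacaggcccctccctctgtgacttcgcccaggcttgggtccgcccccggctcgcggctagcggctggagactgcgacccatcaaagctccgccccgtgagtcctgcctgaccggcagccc
The 3 genes rose by 0.83 ± 0.05, 1.19 ± 0.08 and 1.89 ± 0.06 in the order printed.

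Thioesterases, which free fatty acids from coenzyme A, held the largest rise among all called genes. Acot1 read 739, 104, 101, 78.2 and 111 in DMSO, 1759.7, 1413, 1481, 1570.0 and 1409 at 60 uM and 52504, 51699.9, 52021, 54942 and 50959.6 at 1000 uM. Each clofibrate group was tight and lay above all DMSO arrays, of which replicate 1 was far above the other 4. The step of 5.11 ± 0.47 is 34.4-fold (limma adjusted p = 1.73e-10). Acot2 rose by 1.41 ± 0.06, Acot3 by 1.25 ± 0.10, Acot4 by 1.18 ± 0.07 and Acot7 by 1.23 ± 0.13. Acot1 to Acot4 are close copies of each other, so a probe set named for one may also read another. Within the whole list of omega-hydroxylases and thioesterases, 11 of 18 rose and 1 fell (Acot9, -0.31), with a median of 0.47. Cyp4a1, an omega-hydroxylase and a classical marker of fibrates, was named after its values were seen because it had most of its response at the lower dose. It stood at 52939, 59002, 55127, 53853 and 58089 at 60 uM and 80665, 84546, 79904, 81776 and 83955 at 1000 uM, 2 separate ranges that differ by 1.47-fold (0.56 ± 0.09). The 2.25 ± 0.09 gained at 60 uM was 80.1% of its change at 1000 uM. The highest signal of any probe set on an array was 95378 to 118603, and whether signals in this range are compressed was not tested.

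**Figure D2:**
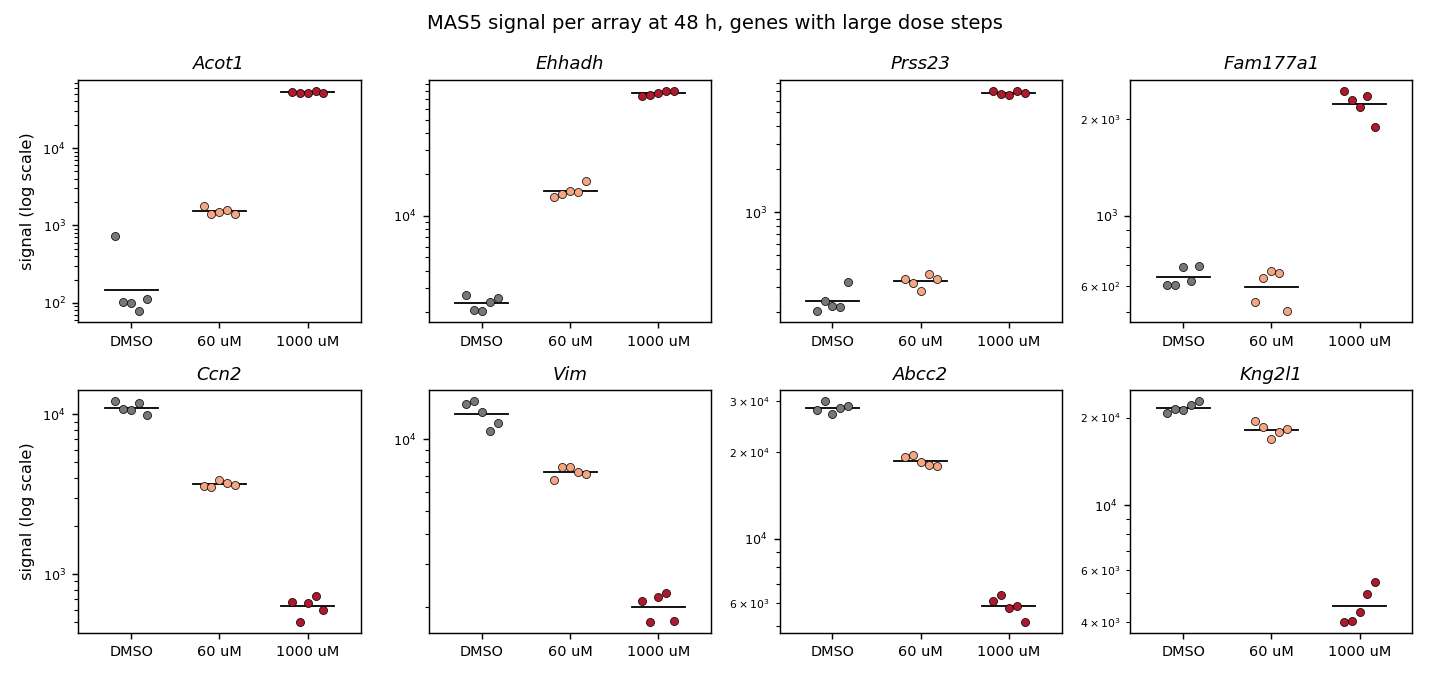
Linear MAS5 signal (log scale) of 8 genes on each array in DMSO, 60 uM and 1000 uM clofibrate at 48 h; points are arrays and bars group means of log2 signal, n = 5. Acot1 and Ehhadh climb at both steps, Prss23 and Fam177a1 climb at the second step, and Ccn2, Vim, Abcc2 and Kng2l1 fall.

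Peroxisome biogenesis followed more weakly. Of 19 peroxins and peroxisome membrane proteins 12 rose and 0 fell, with a median of 0.27, and 8 of them had risen at 60 uM. Pex16 (1.04 ± 0.06) and Pex19 (0.94 ± 0.07), which insert proteins into the peroxisome membrane, rose, as did Pex11a (0.81 ± 0.05), which divides peroxisomes. The other probe set of Pex16 read a change of 0.006 (limma adjusted p = 0.987), and the mean of both gave 0.52. The antioxidant enzyme catalase (Cat) rose by 0.27.

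Fatty acid handling and storage rose with oxidation. Fabp3, the heart-type fatty acid binding protein, had signals of 637, 584, 502, 770.1 and 619.7 at 60 uM and 5102, 5107, 4737, 4933 and 4437 at 1000 uM. These ranges do not overlap, and the step of 2.98 ± 0.39 is 7.88-fold (limma adjusted p = 2.84e-07). Fabp1, the abundant liver form, rose by 1.73 ± 0.06 to a mean signal of 79531 ± 1456 (SD, n = 5). Across the list of binding, uptake and activation, 10 of 19 rose and 1 fell, the acyl-CoA synthetase Acsl4 (-0.58 ± 0.05). Of 22 lipid droplet and lipolysis genes 16 rose and 0 fell, with a median of 0.57, and 4 of the 16 had no call at 60 uM. Hilpda, a droplet protein that inhibits lipolysis, rose by 1.77 ± 0.07, and so did the lipases Mgll (1.34 ± 0.06) and Pnpla2 (1.17 ± 0.07), the triglyceride synthase Dgat1 (1.32 ± 0.05) and G0s2 (1.11 ± 0.08), an inhibitor of Pnpla2.

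Genes of fuel choice rose too. Of 18 genes that steer pyruvate, glycerol and proton leak, 12 rose and 2 fell, and the median of 0.81 was the highest of all lists. Pdk4, the kinase that shuts off pyruvate dehydrogenase, had signals of 5822, 4756, 4752, 5102 and 5120.4 in DMSO, 9414, 10476, 8898, 10083 and 10235 at 60 uM and 45017, 47375, 44023, 45820.4 and 46368 at 1000 uM. Its 3 groups were separate, and the step (2.22 ± 0.06, 4.66-fold) was larger than the response to 60 uM (0.94 ± 0.06). Aqp7, a glycerol channel, read 4491, 4241, 4552, 4161 and 4453 at 60 uM and 16314, 15588, 16152, 16549 and 17490.1 at 1000 uM. Its groups again did not overlap (1.91 ± 0.07). The mitochondrial glycerol phosphate dehydrogenase Gpd2 (1.78 ± 0.10) and glycerol kinase Gk (1.50 ± 0.08) rose as well, while Aqp9, the main glycerol channel of hepatocytes, fell by 0.79 ± 0.10. Ucp2, an uncoupling protein, rose by 1.85 ± 0.44 with arrays of 116, 624, 967, 277 and 575 at 60 uM and 1292, 1328, 1255, 1729.8 and 1844 at 1000 uM. The spread at 60 uM was wide, and the change at 60 uM against DMSO was not called (1.11 ± 0.44).

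Genes that make fat and sterols were raised mainly by the second step. In lipogenesis and desaturation 11 of 18 rose and 3 fell, with a median of 0.36, against 6 higher and 5 lower at 60 uM. The desaturases Fads2 (1.63 ± 0.14) and Fads1 (1.41 ± 0.11) and the elongase Elovl6 (0.95 ± 0.13) led. Fatty acid synthase (Fasn, named after its values were seen) changed by -0.05 ± 0.11 at 60 uM and rose by 0.41 ± 0.11 at the step. Of 19 genes of cholesterol synthesis and uptake, 11 rose and 0 fell, with a median of 0.16 after -0.08 at 60 uM, where 4 were higher and 2 lower. Hsd17b7 (0.55 ± 0.06), Lss (0.48 ± 0.09) and Nsdhl (0.47 ± 0.04), enzymes of the sterol ring, and Insig1 (0.46 ± 0.06), the sterol sensor that retains the SREBP complex, were the largest.

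**Figure D3:**
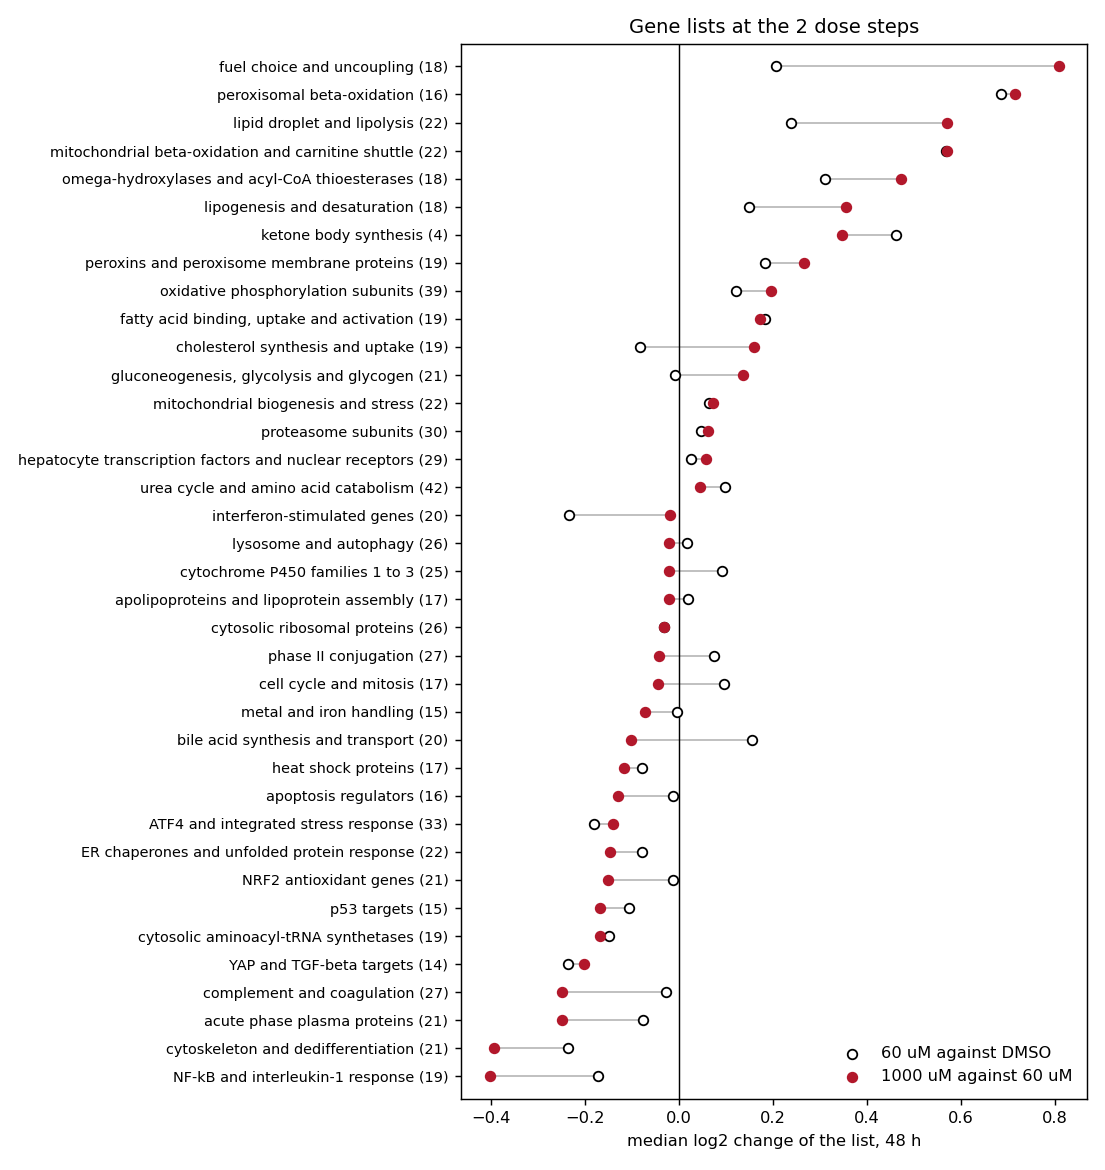
Median log2 change of each pathway list at 48 h for 60 uM against DMSO (open points) and 1000 uM against 60 uM (filled points), with the number of genes tested after each name. The 2 comparisons share the 60 uM arrays; fuel choice (0.81) and peroxisomal beta-oxidation (0.71) have the highest second steps, and the NF-kB (-0.40) and cytoskeleton (-0.39) lists the lowest.

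Outside lipid metabolism the largest rise was Prss23, a secreted serine protease. Its arrays read 203, 238, 222, 217 and 322 in DMSO, 342, 319.9, 282, 371 and 341 at 60 uM and 7062, 6754, 6554, 7003 and 6793 at 1000 uM. The solvent and 60 uM groups lay close together and were not called apart (0.48 ± 0.19, limma adjusted p = 0.13), while the step was 20.7-fold (4.37 ± 0.19). Sult1c3, a cytosolic sulfotransferase, rose by 2.45 ± 0.14 and Cyp17a1, a steroid hydroxylase and lyase, by 2.22 ± 0.11. Both had also risen at 60 uM (1.53 and 1.31). Cd300a, an inhibitory receptor of leukocytes, read 205, 269.7, 261, 193 and 249.9 at 60 uM and 1053, 1101, 1354, 1187 and 1210.2 at 1000 uM. Its groups did not overlap (2.33 ± 0.40), and of 9 Kupffer cell and macrophage markers 0 rose and 3 fell. Summed over all 13 such markers on the array, signals were 25489 to 28084 at 60 uM and 22667 to 23891 at 1000 uM. These include untested ones, and Adgre1 was under the floor of the array in both groups.

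Among genes with a settled symbol the largest fall was that of Ccn2, a matricellular growth factor that responds to YAP and TGF-beta. Its signals were 12048, 10839.8, 10702, 11799.8 and 9881 in DMSO, 3541, 3492, 3859, 3744 and 3601 at 60 uM and 671, 503, 660.0, 727 and 599 at 1000 uM. The groups descended without overlap, by 1.60 and then by 2.54 ± 0.10 (5.81-fold lower, limma adjusted p = 8.94e-20). Of 14 YAP and TGF-beta targets 6 fell and 1 rose, the protease inhibitor Serpine2 (0.81 ± 0.11). At 60 uM against DMSO 5 of the 14 were already lower and 1 higher, and 6 genes of the list were carried further. Fn1, the matrix protein fibronectin, fell by 1.53 ± 0.05. The intermediate filament gene Vim went from 6721, 7666, 7644, 7264 and 7135 at 60 uM to 2107, 1727, 2193, 2275 and 1747 at 1000 uM. These ranges are separate, with a fall of 1.87 ± 0.10. Of 21 cytoskeletal and dedifferentiation genes 15 fell and 0 rose, and the median was -0.39. S100a6 (-1.12 ± 0.08), a calcium-binding protein, the tropomyosin Tpm4 (-0.97 ± 0.06) and the actin binder Tagln2 (-0.92 ± 0.12) were among them. At 60 uM against DMSO 11 of the 21 were already lower and 0 higher (median -0.24). Of the 15 falls 11 were carried further and 4 had no call at 60 uM. Vim and Fn1 are also made by stellate cells. Of the 5 stellate cell and fibroblast markers tested, 0 were called by limma and 1 passed an unadjusted p of 0.05. Acta2 changed by -0.39 to -0.21 over the alternatives and was called lower in 8 of them. Col1a1, Col3a1, Des and Reln were called in none (limma adjusted p at least 0.33). At 1000 uM against DMSO 1 of the 5 was called lower and 0 higher, and the same counts held for the 24 h step. Summed over all 11 such markers on the array, signals were 4322 to 5417 at 60 uM and 4357 to 4662 at 1000 uM. These include untested ones, and Lrat and Lum lay under the floor. Under spike-in scaling 10 of the 21 cytoskeletal genes were lower by call, and the median was -0.28.

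Several of the steepest falls were in transport and secretion. Abcc2, the canalicular exporter of conjugated bilirubin and drugs, read 27977, 29880.5, 26968, 28253 and 28923 in DMSO, 19156, 19484, 18434, 17972 and 17896 at 60 uM and 6126, 6414, 5756, 5863 and 5173 at 1000 uM. Each step down was larger than the spread within groups, and the second (-1.67 ± 0.06) was larger than the first (-0.61 ± 0.06). Kng2l1, a kininogen, read 19395, 18546, 16884, 17832 and 18272 at 60 uM and 3997, 4015, 4322, 4995 and 5468 at 1000 uM. The ranges are far apart (-2.01 ± 0.07) although 60 uM had moved it by only -0.25. Steap4, a metalloreductase induced by inflammation, fell by 2.46 ± 0.11, and B3galnt1, a glycosyltransferase, by 1.80 ± 0.08. The other members of the 12 largest falls without overlap were Tmem14a, Tmem237, Abca8a, Lurap1l, Klkb1 and Sult6b2, with changes from -2.10 to -1.63. The choice of these genes required arrays that do not overlap, and 13.1% of all genes lay lower without overlap and 9.72% higher.

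Plasma proteins made for the acute phase and for clotting fell at the second step. The acute phase list had 14 of 21 lower, 0 higher and a median of -0.25, and 9 of the 14 had no call at 60 uM. A2m, a protease inhibitor, fell from 40622, 41858, 38756, 35501 and 37581 to 15086, 19279.8, 17688, 15148 and 15445 (-1.24 ± 0.06). The groups do not overlap. The endotoxin-binding Lbp (-0.94 ± 0.06), the copper carrier Cp (-0.88 ± 0.07), Ahsg (-0.86 ± 0.04), the carrier fetuin, and the fibrinogen chain Fgb (-0.71 ± 0.06) fell as well. A second probe set of Fgb read -0.15 (limma adjusted p = 0.672), with -0.43 for the mean of both, and 1 of the other 2 probe sets of Cp read -0.10 (limma adjusted p = 0.738). Complement and coagulation had 15 of 27 lower and 3 higher, with a median of -0.25. At 60 uM against DMSO 9 of the 27 were already lower and 4 higher, and 10 genes of the list were carried further. Prekallikrein, Klkb1 (-1.63 ± 0.14), the complement proteases C1r (-1.21 ± 0.07) and C1s (-1.12 ± 0.06), factor F5 (-0.99 ± 0.07) and C3 (-0.86 ± 0.05) fell. F10 (0.27 ± 0.04), F2 (0.19 ± 0.05) and C8g (0.19 ± 0.03) rose.

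Inflammatory signalling genes fell in the same cultures. Of 19 genes of the NF-kB and interleukin-1 response 10 fell and 0 rose, with a median of -0.40, the lowest of the pathway lists, and 7 of the 10 had no call at 60 uM. Cxcl1, a neutrophil chemokine, read 723, 784, 1322, 1038 and 926 in DMSO, 1078, 725, 867, 778 and 916 at 60 uM and 311, 367, 257, 234 and 260.2 at 1000 uM. Solvent and 60 uM overlapped (-0.11 ± 0.19), and all 1000 uM arrays lay lower (-1.62 ± 0.19). Il1rn, the interleukin-1 receptor antagonist, fell by 1.61 ± 0.30 with an overlap of the groups, since 1 array at 1000 uM read 398 and 2 at 60 uM read less. Tnfaip3 (-0.60 ± 0.08) and Nfkbia (-0.28 ± 0.09), inhibitors of NF-kB, fell together with the pathway's other genes. The Nfkbia fall lost its call without 1000 uM replicate 1 (-0.24, limma adjusted p = 0.0516) and with spike-in scaling (-0.16, adjusted p = 0.397). The macrophage marker sums given above were lower at 1000 uM too, and their part in these falls was not tested. Most of each sum was Cd14 (mean 16503 at 60 uM and 14529 at 1000 uM) and Lyz2 (5810 and 4198). The means of Cd163, C1qa and C1qb were also lower. Those of Cd68, Clec4f, Csf1r, C1qc, Ptprc, Tyrobp and Fcgr1a were higher, and the median step of the 9 tested markers was 0.05.

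Bile acid genes split. Cyp7a1, the hydroxylase that commits cholesterol to bile acids, read 1480.1, 1525, 1532, 2036 and 2089 in DMSO, 1842, 1771, 1929, 2227 and 2037 at 60 uM and 684, 489, 779.5, 804 and 1041 at 1000 uM. The lower dose left it in the solvent range (0.19 ± 0.16) and the step lowered it by 1.41 ± 0.16. Of the 20 genes of bile acid synthesis and transport 6 rose and 8 fell. Cyp27a1 of the alternative pathway (-0.69 ± 0.04) and the canalicular phospholipid flippase Abcb4 (-1.09 ± 0.09) fell. Abcg5, which exports sterols (0.87 ± 0.13), the bile acid receptor Nr1h4 (0.79 ± 0.07) and Cyp8b1, which makes cholic acid (0.55 ± 0.06), rose.

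Drug-metabolising enzymes also went both ways. Of 25 genes of cytochrome P450 families 1 to 3, 8 rose and 5 fell, where 11.9% of all genes rose and 18.5% fell. The share that fell is thus near that of all genes. Cyp2e1, which oxidises ethanol and ketones, read 5115, 5327, 5589, 7074 and 7491 in DMSO, 6649, 5250.1, 6353, 5767 and 5871 at 60 uM and 13335, 11513, 15382, 14097 and 15944 at 1000 uM. The first 2 groups overlapped (-0.02 ± 0.09) and the 1000 uM arrays lay above both (1.23 ± 0.09). Cyp3a2 rose by 0.66 ± 0.12 and Cyp2a2 by 0.64 ± 0.08, while Cyp2c11, the male-specific form, fell by 0.76 ± 0.09. Phase II conjugation had 7 of 27 higher and 8 lower, with Sult1c3 and the glucuronosyltransferase Ugt2b1 (-1.25 ± 0.08) at the ends. These families contain close copies that a probe set may not separate.

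Reversals were few and mostly small. The 22 genes were 14 that fell at 60 uM and rose at the step and 8 that did the opposite, which is 0.132% and 0.0753% of the genes tested. At 24 h, in other arrays, 7 of the 14 had the same sign at 60 uM as at 48 h (1 called), and 2 had a called rise at the step. Of the 8, 6 had the same sign at 60 uM (1 called), and 5 had a called fall at the step. At 1000 uM and 48 h 21 of the 22 were not called against DMSO, where 43.9% of all genes were, and the other was Ppl. The class was chosen by opposite steps, whose sum is the change against DMSO. Few calls there follow from that choice and do not test a return to the solvent level. Anp32a, a nuclear phosphatase inhibitor, read 5729, 6475, 6297, 6786 and 7471 in DMSO, 4616, 4792, 5215, 4091 and 3173 at 60 uM and 6802, 7647, 8502, 7884 and 6652 at 1000 uM. The 60 uM arrays lay below both other groups, which overlapped, with -0.60 ± 0.10 at the first step and 0.79 ± 0.10 at the second. The dip was not seen at 24 h, where the steps were 0.15 and -0.01. Bcar3, an adaptor of integrin signalling, did the same, from 1888, 1423, 2079, 1908 and 1889.7 in DMSO to 947, 1136, 1203, 1165 and 1343 at 60 uM and 1829.5, 1744, 1858, 1584 and 1746 at 1000 uM. Its steps were -0.66 ± 0.09 and 0.60 ± 0.09, and at 24 h they were -0.33 and 0.54. Slc22a2, an organic cation transporter, had the largest reversal on paper (-1.44 ± 0.35, then 1.40 ± 0.35) at low signals of 86.3, 233, 258, 77.6 and 217 at 60 uM and 296, 438, 372, 439 and 525 at 1000 uM. The groups are separate, but the standard error is large, and at 24 h the steps of Slc22a2 were 0.09 and -0.08.

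Among the other genes that fell and then rose were Srebf1, the master regulator of lipogenesis (-0.36 ± 0.10, then 0.31 ± 0.10), and Ebp, a sterol isomerase (-0.19 ± 0.06, then 0.31 ± 0.06; named after its values were seen). Cd74, Smg9, Slf2 and Setd5 complete the 8 largest. Their arrays overlapped between the doses except those of Setd5. The call of Setd5 rests on 1 of its 3 probe sets: the other 2 steps were -0.13 and 0.34 (limma adjusted p = 0.804 and 0.46), and the mean of all 3 gave -0.35 and then 0.20 (limma adjusted p = 0.139 and 0.35), so neither call was kept. A second probe set of Srebf1 changed by -0.13 and then 0.21 (limma adjusted p = 0.499 and 0.103). Single arrays decided some of these calls. Without 1000 uM replicate 5 the step of Srebf1 was 0.24 (limma adjusted p = 0.0746) and without 60 uM replicate 3 it was 0.27 (adjusted p = 0.0522). Without 60 uM replicate 5 that of Cd74 was 0.94 (limma adjusted p = 0.0563), and without 60 uM replicate 2 or 1 that of Slf2 was 0.32 or 0.36 (limma adjusted p = 0.0689 or 0.0506). In the other direction Ppl, the cytolinker periplakin, read 2465, 2396, 2261, 2748 and 2024 in DMSO, 2809, 2914, 2830.0, 3064 and 3132 at 60 uM and 1934, 1689.9, 1831, 1792 and 1695 at 1000 uM. All 60 uM arrays were above and all 1000 uM arrays below the DMSO range, with steps of 0.32 ± 0.09 and -0.72 ± 0.09. Its first step lost the call without any 1 of 4 arrays (60 uM replicates 4 and 5 and DMSO replicates 3 and 5), with a change of 0.26 to 0.30 and a limma adjusted p of at most 0.081. Snrnp25, Gldc, Gypc, Cd14, Hmox1, Akr7a3 and Lrrc8d fell by 0.15 to 0.24 at the step, and each of these 7 falls lost its call with median centring (limma adjusted p = 0.0891 to 0.253). With probe sets averaged, the falls of Snrnp25 (-0.04) and Gldc (-0.15) were not called either (limma adjusted p = 0.714 and 0.206). Centred on the array median, 0 of the 8 genes that rose and then fell met both calls, and with spike-in scaling 0. With spike-in scaling 5 genes met both calls in the fall-then-rise direction.

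**Figure D4:**
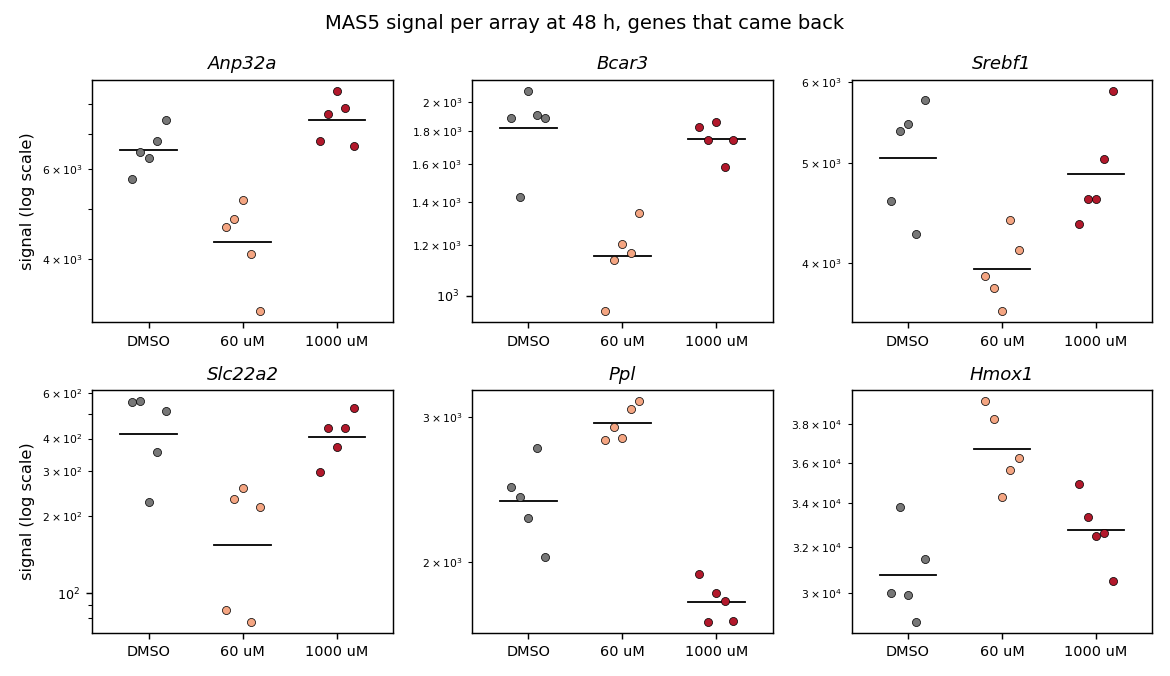
Linear MAS5 signal (log scale) on each array of 6 genes called in opposite directions at the 2 dose steps, at 48 h; points are arrays and bars means of log2 signal, n = 5 per group. Anp32a, Bcar3, Srebf1 and Slc22a2 dip at 60 uM, and Ppl and Hmox1 peak there.

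Genes with a call at 60 uM and none at the step numbered 252. The absence of a call does not show that the dose step left them alone. Pfkfb3, which makes the activator of glycolysis, fell by 0.77 at 60 uM and then changed by -0.11, with a 95% interval of -0.45 to 0.24. Itga3, an integrin, rose by 1.00 and then changed by -0.16 (-0.66 to 0.34), and the calcium pump gene Atp2a3 by 1.26 and -0.0027 (-0.74 to 0.74). Ifih1, a sensor of viral RNA, fell by 0.99 and then changed by 0.20 (-0.34 to 0.73). These intervals are wide, and with spike-in scaling the steps of Atp2a3 and Pfkfb3 were 0.11 and 0.0092. The call at 60 uM ended for Ifih1 without 60 uM replicate 1 (-0.72, limma adjusted p = 0.0639) and for Atp2a3 without any 1 of 5 arrays (60 uM replicates 2, 3 and 4 and DMSO replicates 2 and 4; 1.07 to 1.21, adjusted p at most 0.0771).

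Genes with no call at 60 uM and a call at the step form the largest class. Among those that 60 uM changed by less than 0.2, Fam177a1 read 607, 606, 693, 622 and 694 in DMSO, 536, 636, 672, 663 and 502 at 60 uM and 2459, 2299.9, 2195, 2376 and 1900.1 at 1000 uM. The first 2 groups coincide and the third lies wholly above them (1.90 ± 0.12). Stk17b, a kinase of the death-associated family, rose by 1.41 ± 0.08, Serpinb9b, a serpin, by 1.53 ± 0.16, Me3, a mitochondrial malic enzyme, by 1.21 ± 0.12, the checkpoint kinase Chek1 by 1.07 ± 0.19 and Aifm2, which reduces coenzyme Q to suppress lipid peroxidation, by 1.14 ± 0.32. The other probe set of Aifm2 read 0.10 (limma adjusted p = 0.736), and the mean of both 0.62. Micall2 and Cyp2e1 complete the 8 largest. On the falling side Cryl1, a crystallin-related dehydrogenase, read 4528, 4031, 4247, 3962 and 4286 at 60 uM and 1698, 1522, 1911, 1801 and 1303 at 1000 uM. Its groups were apart (-1.37 ± 0.11). Tmem237, Zbtb9, Slc25a14 and Rrp1b were also lower, by 1.96 ± 0.36, 1.77 ± 0.39, 1.39 ± 0.36 and 1.36 ± 0.31. For Rrp1b the other probe set read -0.38 (limma adjusted p = 0.21), and the mean of both -0.87.

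The same dose step at 24 h, measured in 10 other arrays, called 2292 genes (21.6%), 930 higher (8.75%) and 1362 lower (12.8%). Of the 1265 genes higher at 48 h 684 were also called higher at 24 h (54.1% of the 48 h list and 73.5% of the 24 h list), and 16 were called lower. Of the 1971 lower, 962 were called lower at 24 h (48.8% and 70.6%) and 15 higher. The 2 steps correlated at r = 0.666 across genes, which are not independent replicates. The 12 largest rises and 12 largest falls at 48 h all had the same sign at 24 h, and 12 of the rises and 10 of the falls were called there. The difference of the dose step between the times was called for 444 genes (4.18%). Prss23 rose by 2.78 ± 0.19 at 24 h, so its step was larger at 48 h by 1.59 ± 0.27 (limma adjusted p = 0.000356). Oat, which links ornithine to proline and glutamate, read 6732, 7095, 7261, 7329.8 and 9125 at 60 uM and 22869, 22042, 28272, 27451 and 25920.3 at 1000 uM at 48 h. Its groups lay apart, and the step of 1.75 ± 0.09 compared with 0.65 ± 0.09 at 24 h. Sult1c3 (difference 1.22), Dhrs7l1 (1.15) and Lrrc45 (1.30) are the other 3 largest positive differences, and Zfp185 (-1.35), Tmco4 (-1.17), Tdrd3 (-1.11), Rragd (-1.10) and Mthfd2 (-1.07) the 5 largest negative ones. The 48 h step of Lrrc45 was not called, with 0.18 to 0.37 over the alternatives (limma adjusted p at least 0.2175). The Zfp185 difference lost its call without 1000 uM replicate 4 or 60 uM replicate 1 (-1.21 each, limma adjusted p = 0.0512 and 0.0505). The 48 h step itself lost its call for Dhrs7l1 without 60 uM replicate 2 or 1000 uM replicate 4 or 5 (0.33 to 0.39, limma adjusted p at most 0.114). For Tmco4 it did so without 60 uM replicate 2, 3 or 4 or 1000 uM replicate 3, 4 or 5 (-0.40 to -0.47, limma adjusted p at most 0.11), and for Zfp185 without all but 3 of the 10 arrays in turn (-0.54 to -0.69, adjusted p at most 0.132).

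**Figure D5:**
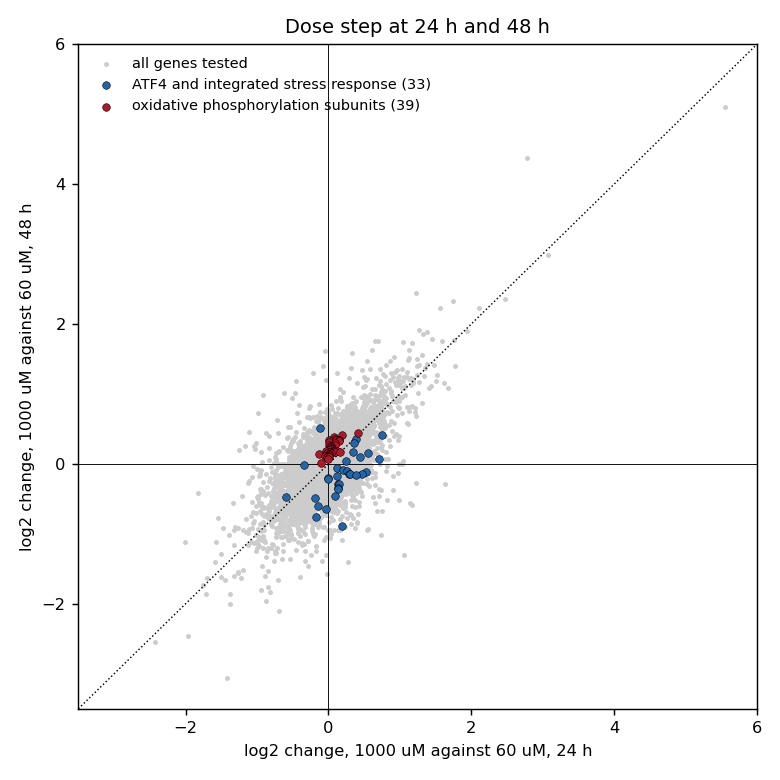
Log2 change from 60 to 1000 uM at 24 h (horizontal) and 48 h (vertical) for the 10627 genes tested (grey), with genes of the ATF4 list and of oxidative phosphorylation coloured. Genes scatter about the diagonal (r = 0.666); 29 of the 33 ATF4 genes sit to the right of and below it, and all 39 respiratory chain genes above it.

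Gene groups of amino acid stress and of respiration differed between the times. The ATF4 list, the integrated stress response that adjusts amino acid supply, had 13 of 33 genes higher and 1 lower in the 24 h step (median 0.14), but 3 higher and 13 lower in the 48 h step (median -0.14), and 12 of its genes were called for the difference itself. At 60 uM against DMSO at 48 h 10 of the 33 were already lower and 1 higher (median -0.18), where 5.79% of all genes were lower. At the 48 h step 9 genes of the list were carried further. Mthfd2, a mitochondrial folate enzyme, read 2721, 2283, 3082, 2047 and 2688 at 60 uM and 2318, 3042, 2983, 3278 and 2921 at 1000 uM at 24 h. At 48 h it read 2263, 1945, 2060.2, 1653 and 1966 at 60 uM and 1507, 1143, 1096, 979.7 and 745 at 1000 uM. The groups overlapped at 24 h and lay apart at 48 h, where the step was -0.88 ± 0.14. The cystine carrier Slc7a11 fell by 0.65 ± 0.10 at 48 h, against -0.04 at 24 h, and the arginine carrier Slc7a1 by 0.76 ± 0.11, against -0.18. Another probe set of Slc7a1 read -0.20 at 48 h (limma adjusted p = 0.14), and the mean of both -0.48. Atf4 itself fell by 0.29 ± 0.05 at 48 h, against 0.14 at 24 h, and the glutamine-using asparagine synthetase Asns changed by -0.14, against 0.47; both were named after their values were seen. Of the 19 cytosolic aminoacyl-tRNA synthetases, 8 fell at 48 h and 0 rose, against 1 and 3 at 24 h, and 6 were called for the difference. At 60 uM against DMSO at 48 h 6 of the 19 were already lower and 0 higher, and 4 of these 6 had no called step.

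Respiratory chain genes moved the other way. Of 39 subunits of oxidative phosphorylation 27 rose and 0 fell in the 48 h step (median 0.20), against 5 higher and 1 lower at 24 h (median 0.03), and 15 were called for the difference. Ndufs7 of complex I read 23058, 20341, 19919, 19959.5 and 20700.2 at 60 uM and 28655, 27304, 27160.3, 27525 and 27225 at 1000 uM. These ranges do not overlap (0.41 ± 0.04, against 0.19 at 24 h). Sdha, the flavoprotein of complex II, rose by 0.34 ± 0.04, against 0.01. Each called change is small, at most 0.41, and 13 of the 27 had been called higher at 60 uM. Mitochondrial biogenesis genes had 7 of 22 higher and 1 lower, among them Tfam (0.52 ± 0.06), which packages mitochondrial DNA, and Ppargc1a, the coactivator, which fell by 0.49 ± 0.12. With spike-in scaling the falls of Ppargc1a (-0.38) and Atf4 (-0.17) were not called (limma adjusted p = 0.0805 and 0.202). Calls of a difference between the times depended on the scaling. With the authors' scaling 12 genes of the ATF4 list, 6 synthetases and 15 respiratory chain genes passed, with median centring 9, 4 and 4, and with spike-in scaling 2, 0 and 0. The list medians of the difference were -0.36, -0.23 and 0.18 with the authors' scaling and -0.35, -0.22 and 0.18 with spike-in scaling.

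Amino acid catabolism was divided, with 15 of 42 genes of that list and the urea cycle higher and 12 lower. Besides Oat, Uroc1 of histidine breakdown (1.28 ± 0.08) and Aadat of lysine and kynurenine metabolism (0.73 ± 0.06) rose. Kmo (-0.69 ± 0.12) and Tat (-0.69 ± 0.08), which degrade kynurenine and tyrosine, and Ass1 of the urea cycle (-0.64 ± 0.04) fell. Gluconeogenesis, glycolysis and glycogen had 10 of 21 higher and 4 lower. Pck1, which commits oxaloacetate to glucose, rose by 1.08 ± 0.11, and Slc2a2, the glucose carrier of hepatocytes, fell by 0.77 ± 0.04.

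Of the stress and defence lists, ER chaperones, heat shock proteins, NRF2 genes and p53 targets had larger shares of lower genes than the 18.5% of all genes; these shares were not tested. ER chaperones had 11 of 22 lower and 0 higher (median -0.15), for example Hsp90b1 (-0.70 ± 0.04), Manf (-0.58 ± 0.05) and Xbp1 (-0.55 ± 0.03), the last a transcription factor of the unfolded protein response. Heat shock proteins had 8 of 17 lower and 3 higher, with Cryab, a small heat shock protein, at -1.23 ± 0.09. NRF2 antioxidant genes had 9 of 21 lower and 4 higher, with Srxn1, which repairs peroxiredoxins, at -0.95 ± 0.05 and Me1, which is also a lipogenic enzyme, at 1.01 ± 0.06. The p53 targets had 8 of 15 lower and 2 higher, and apoptosis regulators 3 of 16 lower and 1 higher, near the share of lower genes overall. With spike-in scaling the ER chaperone list had 4 lower and 1 higher, the p53 list 2 and 2 and the synthetases 1 and 0, so the lean of these lists depends on the scaling.

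Large housekeeping groups had small median changes. Of 26 cytosolic ribosomal protein genes 0 were called at 48 h in either direction by limma (median -0.03; 3 at an unadjusted p under 0.05), while quantile normalization called 16 lower. Of 30 proteasome subunits 9 rose and 0 fell (median 0.06), where 11.9% of all genes rose and 18.5% fell (median -0.05). Cell cycle genes had 1 of 17 higher, the kinetochore gene Spc24, with signals of 5438, 5499, 4939, 4876 and 4729.8 at 60 uM and 14381, 14198, 14756, 13604 and 13430.2 at 1000 uM. Its groups are far apart (1.47 ± 0.07 after 2.07 ± 0.07 at 60 uM), while Bub1, a checkpoint kinase of the same stage, was the 1 gene lower (-1.09 ± 0.38). Without 1000 uM replicate 4 the Bub1 step was -0.56 and not called (limma adjusted p = 0.16), and it also missed the threshold without 60 uM replicate 2, 3 or 4 (-0.99 to -1.04, adjusted p at most 0.0752).

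Markers of other cell types gave few calls. Among 11 hepatocyte markers 6 fell and 0 rose, led by Ahsg and Cyp2c11, and Alb (-0.03) and Ttr (-0.01) were not called. Their summed signal was 532116 to 643594 at 60 uM and 488901 to 515655 at 1000 uM. Of 5 endothelial markers tested 1 was called, Eng (0.64 ± 0.15). Sums over the 9 on the array were 2212 to 3133 and 2954 to 3405, with Vwf under the floor. Of 2 bile duct markers tested 1 fell, Epcam (-0.30 ± 0.05), a call lost with spike-in scaling (limma adjusted p = 0.211). Sums over the 6 on the array were 12209 to 14168 and 10487 to 11032. Krt7 was under the floor in both groups, Spp1 at 60 uM and Krt19 at 1000 uM. Most of each sum was Epcam (mean 12280 at 60 uM and 9981 at 1000 uM). The means of Krt19 and Cftr were also lower, and those of Muc1, Spp1 and Krt7 higher. Of 2 lymphoid markers tested 0 were called by limma, and 0 at an unadjusted p under 0.05. Sums over the 8 on the array were 1450.0 to 2008 and 1465 to 1908, with Cd3d, Cd79b and Nkg7 under the floor.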

How the data were processed

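Total RNA from 30 wells was read on Affymetrix rat arrays. The values are intensity signals on a linear scale deposited by the authors, made with MAS5 per the submitters' processing notes; which version was run is not given in the sources read. All arrays have the same trimmed mean (2% cut from each end, 1501), which is a property of the deposited values. Signals were taken to log2 with no constant added. Probe sets were kept where the mean log2 signal over all arrays exceeded the 40th percentile of non-control sets (8.00, a signal of 255), which left 18625 of 31042.

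Limma 3.58.1 in R 4.3.3 fitted a mean for each of the 6 groups of 5 arrays (lmFit, contrasts.fit, eBayes with an intensity trend). P-values were adjusted by Benjamini and Hochberg within each comparison. On data simulated for 1000 uM against 60 uM at 48 h with 18625 probe sets, of which 100 were changed by 0.5 and 100 by 1 on the log2 scale, the fit recovered 61% and 90%, and 6.21% of its calls were false. The simulated noise was normal and independent between probe sets, with no shift of scaling. Far fewer probe sets were changed than the 4719 (25.3%) called in the data. These shares check the fit and are not error rates of the calls reported here. In the platform annotation 20826 probe sets carry 1 gene, 436 carry several and 9780 carry none. Symbols were updated through the GRCr8 RefSeq gene table by gene ID for 20758 and by accession for 2, and 66 kept the old one. Each of 10627 genes is read by its brightest probe set. Other tested probe sets of the named genes gave 69 pairs, of which 0 were called in opposite directions and 27 had only 1 of the pair called. The floor of a group is the highest signal among the TrpnX control sets, taken per array and averaged over the group (log2 5.70 to 6.31).

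Members and the 37 pathway and 6 marker lists were chosen with earlier results of these data known. Named genes have 1 settled symbol and are the 12 largest rises and falls without overlap, the 8 largest reversals each way, the 8 largest changes each way at 60 uM with no called step, the 8 largest each way with a change under 0.2 at 60 uM, up to 5 per list by size of step, and the 5 largest differences between times each way. Exceptions, named after their values were seen, are Acaa2, Acadvl, Acot9, Acsl4, Alb, Amacr, Aqp9, Asns, Ass1, Atf4, C8g, Cat, Cyp27a1, Cyp4a1, Cyp8b1, Ebp, Ech1, Echs1, Etfa, F10, F2, Fasn, Hadha, Nfkbia, Slc25a20, Tnfaip3 and Ttr. Alternatives changed the filter, the constant, the scaling, the arrays fitted, array weights, the variance prior and the probe sets averaged, and left out each 48 h array in turn. A replicate block was added after the data were seen.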

Additional observations from a re-analysis of the deposited data

Results flagged for a closer look

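An array lay far from the other 4 of its group in 36 of the 495 sets of 5 signals examined (165 genes in 3 groups at 48 h), which is 7.27%, where chance alone marks about 1 in 20. The values given are the gap to the nearest other array divided by the whole range of the group, on the log2 scale. High signals of DMSO replicate 1 were those of Acot1 (739 against 78.2 to 111, gap 0.844) and Fasn (6911 against 4528 to 4839, gap 0.843). High signals of DMSO replicate 3 were those of Tpm4 (13623 against 12431 to 12672, gap 0.79). High signals of DMSO replicate 5 were those of Fgb (88311 against 73005 to 76910.1, gap 0.726) and Klkb1 (4758 against 3153 to 3452, gap 0.78). Low signals of DMSO replicate 2 were those of Bcar3 (1423 against 1888 to 2079, gap 0.746) and Crat (2184 against 2461 to 2577, gap 0.722). Low signals of DMSO replicate 3 were those of Aifm2 (125 against 671 to 943, gap 0.832) and Tmem14a (104 against 696 to 1097, gap 0.807). High signals of 60 uM replicate 1 were those of Atf4 (28187 against 23476 to 24504, gap 0.766), Ndufs7 (23058 against 19919 to 20700.2, gap 0.737) and Tdrd3 (1239.7 against 785 to 847, gap 0.831). High signals of 60 uM replicate 3 were those of Asns (7444 against 6872 to 6929.7, gap 0.896) and Cyp3a2 (4313 against 3565 to 3679, gap 0.834). High signals of 60 uM replicate 5 were those of Lbp (11692 against 9515 to 9957, gap 0.779) and Oat (9125 against 6732 to 7329.8, gap 0.72). Low signals of 60 uM replicate 1 were those of Elovl6 (1921 against 2775 to 3046, gap 0.798), Lrrc8d (6272 against 6839 to 6941, gap 0.855) and Tagln2 (4526 against 6694 to 7645, gap 0.747). Low signals of 60 uM replicate 3 were those of Ebp (5720.0 against 6469 to 6739.5, gap 0.75) and Pnpla2 (4475 against 4639 to 4693, gap 0.754). Low signals of 60 uM replicate 5 were those of Slc7a11 (1387 against 1704 to 1767, gap 0.848) and Uroc1 (3973 against 5218 to 5761, gap 0.734). High signals of 1000 uM replicate 1 were those of Acot3 (3856 against 3332 to 3436, gap 0.79), Ndufs7 (28655 against 27160.3 to 27525, gap 0.751) and Snrnp25 (3447 against 2990.3 to 3103, gap 0.741). High signals of 1000 uM replicate 3 were those of Cyp17a1 (5645 against 4299 to 4524, gap 0.812) and Il1rn (398 against 92.2 to 134, gap 0.744). High signals of 1000 uM replicate 4 were those of Acot7 (13079 against 8356 to 9335, gap 0.753). High signals of 1000 uM replicate 5 were those of Cpt1b (12682 against 10917 to 11153, gap 0.857). Low signals of 1000 uM replicate 4 were those of Pex16 (8419 against 9556 to 9842, gap 0.811), Rrp1b (109.5 against 380.2 to 609, gap 0.725) and Srxn1 (10203 against 11040.0 to 11262, gap 0.799). Low signals of 1000 uM replicate 5 were those of Acot9 (5546 against 5907 to 6035, gap 0.745), Asns (5493 against 6454 to 6851, gap 0.73) and Sult6b2 (727 against 1042 to 1152, gap 0.782).

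The dose step at 48 h differed from that at 24 h, by the interaction contrast of the limma fit at an adjusted p under 0.05, for 63 of the genes named, and the values here are the 48 h step minus the 24 h step on the log2 scale. Among oxidation genes the difference was positive for Crat (0.51), Acot8 (0.47), Hacl1 (0.43), Echs1 (0.34), Acadm (0.34), Acadvl (0.32) and Etfa (0.19). Lipid storage and synthesis gave Fads2 (1.01), Fads1 (0.61), Lss (0.55), Nsdhl (0.18), Mgll (0.38), Fabp1 (0.56) and Aqp7 (0.64), and Acsl4 gave -0.55. The respiratory chain genes gave Ndufs7 (0.22) and Sdha (0.33). Among cytochromes P450 it was Cyp2e1 (0.94), Cyp3a2 (0.70), Cyp17a1 (0.66), Cyp2a2 (0.65) and Cyp8b1 (0.47). Plasma proteins fell further at 48 h by differences of A2m (-1.07), Ahsg (-0.72), Kng2l1 (-0.63), C3 (-0.54), C1r (-0.49), Fgb (-0.48) and Lbp (-0.39), whereas C8g (0.28) and F10 (0.35) had positive ones. Genes of amino acid supply and stress gave Mthfd2 (-1.07), Asns (-0.61), Slc7a11 (-0.61), Slc7a1 (-0.59), Atf4 (-0.43), Rragd (-1.10), Srxn1 (-0.72), Hsp90b1 (-0.27) and Cryab (-0.78), and Hmox1 gave 0.32. Amino acid and glucose enzymes gave Oat (1.11), Uroc1 (0.51), Aadat (0.46), Ass1 (-0.29) and Pck1 (-0.59). Matrix, cytoskeletal and transport genes gave Fn1 (-0.69), S100a6 (-0.69), Tpm4 (-0.39), Abcc2 (-0.96) and B3galnt1 (-0.86). The remaining positive differences were Prss23 (1.59), Lrrc45 (1.30), Sult1c3 (1.22), Dhrs7l1 (1.15), Spc24 (0.93), Anp32a (0.81) and Me3 (0.68), and the remaining negative ones Zfp185 (-1.35), Tmco4 (-1.17), Tdrd3 (-1.11), Cryl1 (-0.83) and Lrrc8d (-0.46). The difference lost its call when 1 array was left out for Acadm, Fads1, Ndufs7, Nsdhl, Pck1, Slc7a1 and Zfp185, with an adjusted p of at most 0.0935; Ndufs7 did so without any 1 of 9 arrays and Nsdhl without any 1 of 7.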

How the results depend on the processing

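With no filter, a stricter one, log2(signal + 32), array quality weights, a prior with no intensity trend or quantile normalization, each count of probe sets and of genes by response class stayed within 1.5 times its value. The cause was not tested for any change given here. With median centring the difference between times was called for 193 probe sets higher and 137 lower (from 304 and 270), genes raised at 60 uM with no called step numbered 53 (from 118), and 0 genes rose and then fell (from 8). Scaling to the spike-ins gave 920 probe sets lower in the dose step at 48 h (from 2850), 540 in that at 24 h (from 1936), 479 higher and 198 lower at 60 uM against DMSO (from 860 and 826), 1863 lower at 1000 uM against DMSO (from 4219), and 28 and 30 for the difference between times. By class it gave 301 genes higher and 105 lower further (from 480 and 467), 525 lower with no call at 60 uM (from 1496), 33 higher and 41 lower with no called step (from 118 and 134), 5 and 0 that came back (from 14 and 8), and 90 listed genes lower (from 181). With only the 48 h arrays fitted, 5 genes rose and then fell. Leaving out 1 array at a time gave 1712 to 1793 probe sets higher and 2552 to 2751 lower in the dose step at 48 h, 749 to 860 and 687 to 860 at 60 uM against DMSO, and 2634 to 2859 and 3906 to 4276 at 1000 uM against DMSO. The genes that fell and then rose numbered 9 (without DMSO replicate 3) to 17, and those that rose and then fell 4 (without 60 uM replicate 2) to 10, with 5 without 1000 uM replicate 3. Of 285 genes followed through each alternative, 237 were called at the step and 198 of these kept the call and its direction throughout. No called value changed direction. With each gene's probe sets averaged, the differences between times of Mgll (0.15) and Tpm4 (-0.23) were not called (limma adjusted p = 0.663 and 0.298), and that of Kng2l1 was -0.27. The titles number the wells serially in 5 sets that each hold all 6 groups, which no label calls a pairing. With these sets as a replicate block, a fit chosen after seeing the data, 1911 probe sets were higher and 2912 lower in the dose step at 48 h, and no count moved by over 1.5 times. Deviations from the group means correlated at -0.018 to 0.061 between the 5 same-numbered arrays of 60 uM and 1000 uM at 48 h. Between arrays of different numbers it was -0.058 to 0.088. Of these 10 arrays 4 correlated best with their own number, and 5 of 10 did so in each pairing with DMSO at 48 h. In the pairing of 60 and 1000 uM at 24 h 1 of 10 did so. Each array had 5 candidates in the other group, 1 of them with its own number. Whether same-numbered arrays share more than the number cannot be told from these values. Genes near the floor of the array have wide errors, as Slc22a2 and Bub1 show.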
